A study of Homo sapiens with 5 samples.

Results

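TIRAP, an adaptor of Toll-like receptors, was examined together with the receptors, adaptors, kinase and ubiquitin ligase it works with in HEK293 cells that stably carry PRL-1 or an empty vector. The set was defined as 9 genes, namely the adaptors TIRAP, MYD88 and TICAM1, the kinases IRAK4 and IRAK1, the ubiquitin ligase TRAF6 and the receptors TLR2, TLR3 and TLR4. Every probe set that the platform annotation gives to these genes was taken, 18 of the 54675 on the array, and they covered 8 of the 9 genes. IRAK4 has no probe set in the annotation used and was not analysed here. TIRAP was selected on its signals in the comparison described here, in which 1 of its probe sets was called (an adjusted p at or below 0.05 over all 33818 tested), so its values are given as a description without a test. The remaining genes were added for their place in the pathway.

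HEK293 is a line derived from human embryonic kidney. The 2 arrays labelled PRL-1 came from cells with the stably integrated plasmid pcDNA4-PRL-1, and the 3 vector arrays came from cells that carry empty pcDNA4 in the same way. PRL-1 is a membrane-bound protein tyrosine phosphatase, and its gene is PTP4A1. Per the methods of the study, each array held RNA of an independent culture. No ligand for Toll-like receptors is named, and a further PRL-1 array was left out by the authors after qRT-PCR. The cultures of a group stem from a stable line, so what PRL-1 does and how the lines otherwise differ cannot be told apart. The p-values cover the spread from culture to culture only. Because RNA was taken from whole cultures, a change in every cell and a change in a share of the cells cannot be told apart either.

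Toll-like receptors recognise molecules of microbes, some at the cell surface, such as TLR2 and TLR4, and some in endosomes, such as TLR3. On binding, their cytoplasmic TIR domains gather adaptors. TIRAP, also called Mal, sits at the inner face of the plasma membrane and links TLR2 and TLR4 to MYD88, which assembles a complex with IRAK4 and IRAK1 that activates TRAF6 and, through it, the kinase TAK1, NF-kB and MAP kinases. TICAM1, also called TRIF, serves TLR3 and the endosomal signal of TLR4 and leads to interferon regulatory factors. HEK293 cells are widely used as hosts for transfected Toll-like receptors because they make little of most of these receptors themselves.

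Signals were MAS5 intensities, which have a common trimmed mean of 500 on all arrays, and 100 was taken as the level under which a probe set counts as dim. Vector replicate 3 stood apart, with correlations of 0.938 to 0.947 with the other arrays over the log2 signals of tested probe sets, against 0.954 to 0.964 among the remaining 4. The 4 tested probe sets of PTP4A1 gave log2 fold changes of 0.06 to 0.15, none of them called (limma adjusted p from 0.737 to 0.892). The sources used here do not say whether these probe sets read the construct. Of the HEK293 markers, KRT8, KRT18, INA, VIM and PAX2 reached a signal of 100 on every array in at least 1 probe set each, whereas both NEFM probe sets stayed under 100 throughout and LHX1 reached 100 on 2 vector arrays only. Summed over the list, these markers gave 21333 to 22093 on the arrays labelled PRL-1 and 23673 to 31377 on the vector arrays, without a call. VIM carried the lower sum, at 13481 and 13501 on the arrays labelled PRL-1, against 16971, 18340 and 23976 on the vector arrays. The keratin KRT8 ran the other way, at 2141 and 2116 on the arrays labelled PRL-1, against 998.8, 867 and 1583 on the vector arrays, as did KRT18 with a log2 fold change of 0.19. Leukocyte and macrophage markers reached 100 in 16 of 80 values, with PTPRC, CD163, SPI1 and TYROBP under 100 on all arrays. CD3E, at 169 to 267, and 1 ITGAM probe set, at 113 to 222, lay above 100 on all 5 arrays, and CSF1R did on 4. The list summed to 881 to 944 on the arrays labelled PRL-1 and 725 to 1206 on the vector arrays.

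Groups were apart in the upward direction in 12.8% of all tested probe sets. TIRAP signal was higher on both arrays labelled PRL-1 than on any vector array in each of its 4 probe sets. In probe set 1552360_a_at, the one that placed the gene in this set, it was 490.5 and 540.8 on the arrays labelled PRL-1, against 89.3, 116.2 and 148.8 on the vector arrays. The group means were 516 ± 36 (SD, n = 2) and 118 ± 30 (SD, n = 3), a 4.46-fold difference with a log2 fold change of 2.16 ± 0.27 (SE). A vector array lay under 100 here, so the fold rests on values near the dim range.

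The other TIRAP probe sets differed in the same direction by less. In 239796_x_at the signal was 299.9 and 297.8 on the arrays labelled PRL-1, against 93.4, 77 and 148.4 on the vector arrays, 2.92-fold higher, with 2 of 3 vector arrays in the dim range. The suffix x marks probe sets whose probes may also bind other transcripts. In 1552804_a_at it was 491.3 and 462.3, against 134.9, 239.4 and 264.3 on the vector arrays, 2.33-fold higher. In 1554091_a_at, which had the highest mean signal of the 4, it was 570.4 and 635.8, against 349.8, 294.6 and 292 on the vector arrays, 1.94-fold higher. All vector values of this last probe set lay well above 100, so its fold does not depend on dim values.

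The 4 probe sets disagreed on the size of the difference, from 1.94-fold to 4.46-fold, and on the order of the vector arrays. Vector replicate 3 gave the highest vector signal in 3 of them and the lowest in 1554091_a_at. Without vector replicate 3 the log2 fold changes were 2.34, 1.82, 1.41 and 0.91 in the order given. They read the transcripts of a single gene on the same 5 arrays and are not independent measurements. Only 1 of the 4 was called, where 0.0591% of all tested probe sets were called higher, and nothing is read from that count because it chose the gene.

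**Figure D1:**
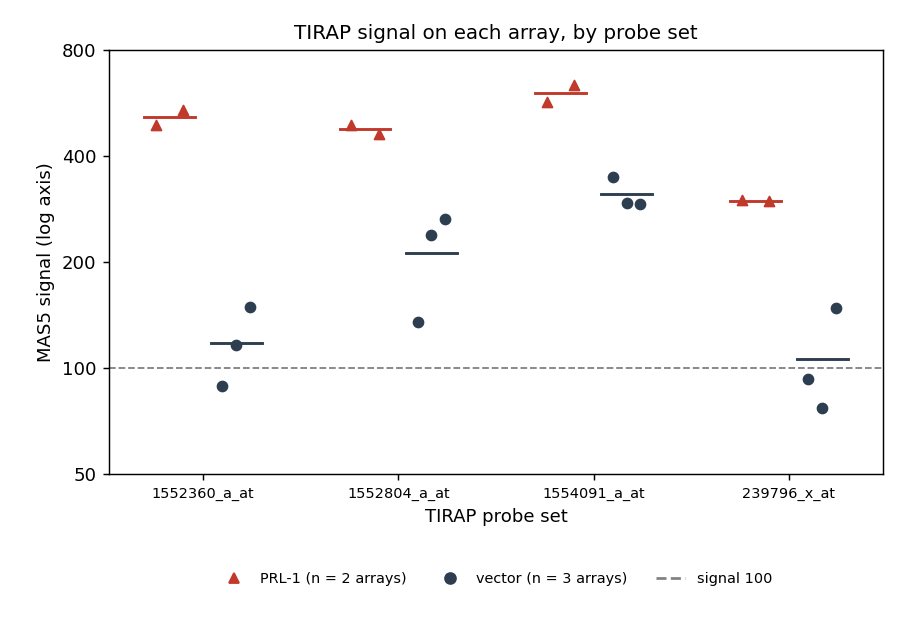
MAS5 signal (log axis) of the 4 TIRAP probe sets on the 2 arrays labelled PRL-1 (triangles) and the 3 vector arrays (circles), with bars for group means and a dashed line marking 100. Both arrays labelled PRL-1 lie above all vector arrays in every probe set, and the vector arrays reach under the dashed line in 1552360_a_at and 239796_x_at.

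MYD88, the adaptor that TIRAP recruits to TLR2 and TLR4, was measured by a single probe set at 1083 and 1013 on the arrays labelled PRL-1, against 928, 877.9 and 780.4 on the vector arrays. The groups did not overlap, as in 12.8% of all tested probe sets in this direction, and the log2 fold change of 0.28 (95% interval -0.02 to 0.59) was not called (limma adjusted p = 0.535). Its upper end lies under the log2 fold change of 0.95 of TIRAP 1554091_a_at, the lowest of the TIRAP probe sets, but within the interval of that probe set, 0.57 to 1.34. TIRAP was chosen on this contrast, so nothing is read from that comparison. TICAM1, the adaptor of TLR3, gave 183.4 and 206.5 on the arrays labelled PRL-1, against 210.9, 276.1 and 105.1 on the vector arrays. Its groups overlapped, and the log2 fold change of 0.09 had an interval of -0.81 to 0.99 (limma adjusted p = 0.961), wide enough to hold both a fall and a rise of well over 1.5-fold. Without vector replicate 3, the lowest of the 5, it was -0.31.

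IRAK1, the kinase that MYD88 brings in through IRAK4, was bright in both of its probe sets. In 201587_s_at it was 11980 and 11523 on the arrays labelled PRL-1, against 14537, 14671 and 12602 on the vector arrays, and the groups did not overlap. The log2 fold change of -0.24 (95% interval -0.51 to 0.02) was not called (limma adjusted p = 0.544), where 16.1% of tested probe sets had groups apart in this direction. In 1555784_s_at it was 1296 and 1271 against 1471, 1259 and 1162 on the vector arrays, a log2 fold change of -0.01 (95% interval -0.32 to 0.30). The probe sets of IRAK1 thus did not show the same difference, and neither passed the test.

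TRAF6, the ubiquitin ligase that carries the signal on to TAK1, was also read by 2 probe sets. In 227264_at it gave 344.2 and 293.5 on the arrays labelled PRL-1, against 284.7, 252.9 and 277.6 on the vector arrays. The log2 fold change of 0.23 (95% interval -0.20 to 0.66) was not called (limma adjusted p = 0.736). In 205558_at the arrays labelled PRL-1 gave the lowest and the highest of the 5 values, 176.9 and 281.4, against 257.2, 240 and 200.3 on the vector arrays, with a log2 fold change of -0.05 (95% interval -0.65 to 0.55, limma adjusted p = 0.966). Over MYD88, TICAM1, IRAK1 and TRAF6, 0 of 6 tested probe sets were called by limma, where 0.192% of all tested probe sets were called in either direction and 0.133% as lower. Groups did not overlap in 3 of the 6, 2 higher and 1 lower, against 28.9% of all tested probe sets. None of the 6 had an unadjusted p under 0.05, by limma or by the methods' t-test, as 9.72% of all tested probe sets had by limma.

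The 3 receptors of the set were in the dim range. None of their 8 probe sets had a signal of 100 on at least 2 arrays, so none was tested, and 2 of the 40 values reached 100. TLR2, which senses bacterial lipoproteins, gave 16.5 and 24.9 on the arrays labelled PRL-1, against 102.1, 14.4 and 30.5 on the vector arrays. TLR3, the endosomal receptor of double-stranded RNA, was brightest in 239587_at, with 68.5 and 72.5 on the arrays labelled PRL-1, against 77.6, 97.5 and 78.9 on the vector arrays. Its other 2 probe sets stayed under 80 on all arrays. TLR4, the receptor of lipopolysaccharide, was brightest in 221060_s_at, with 92.4 and 59.4 on the arrays labelled PRL-1, against 94.4, 85 and 108.2 on the vector arrays. Its other 3 probe sets ranged from 1.02 to 30.7. No fold is given for these receptors because both groups were dim, and a level under 100 does not show that a transcript is absent.

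**Figure D2:**
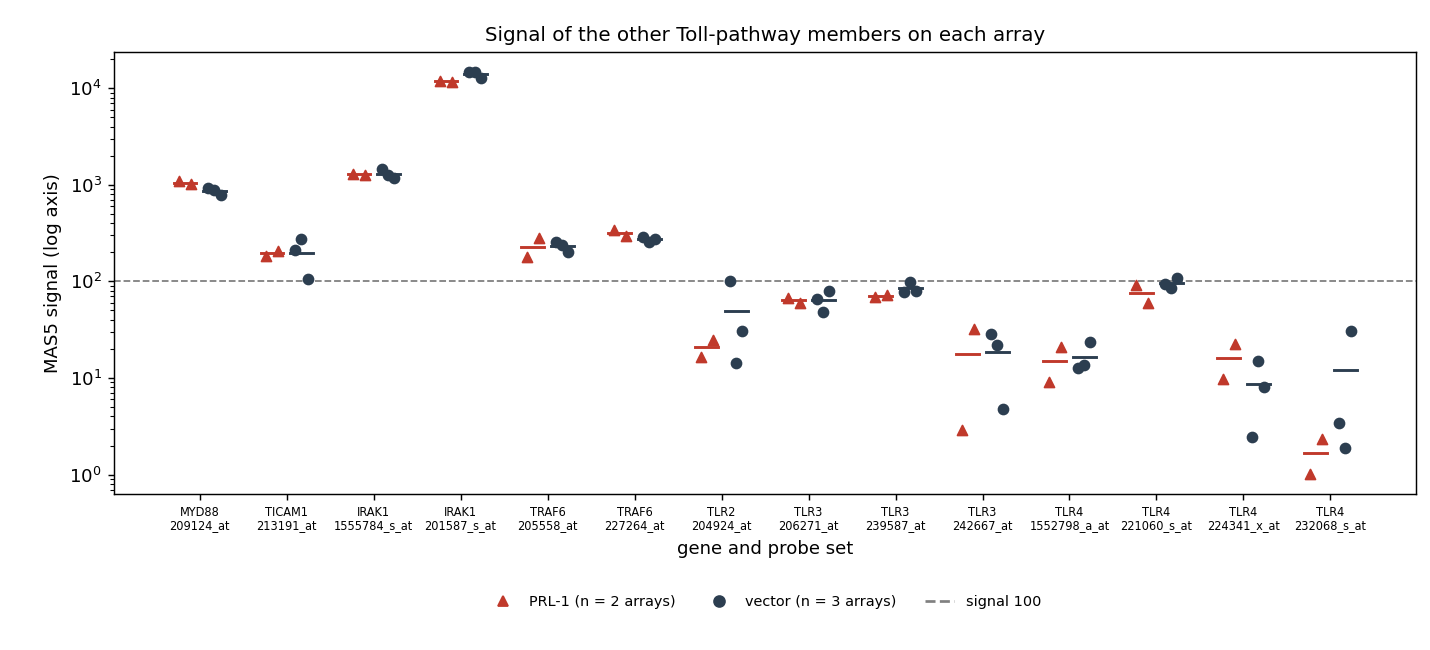
MAS5 signal (log axis) of the 14 probe sets of the other measured members on the 2 arrays labelled PRL-1 (triangles) and the 3 vector arrays (circles), with bars for group means and a dashed line marking 100. MYD88, TICAM1, IRAK1 and TRAF6 lie above the line on all arrays, whereas TLR2, TLR3 and TLR4 lie under it except for 1 vector array each of TLR2 and TLR4.

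**Figure D3:**
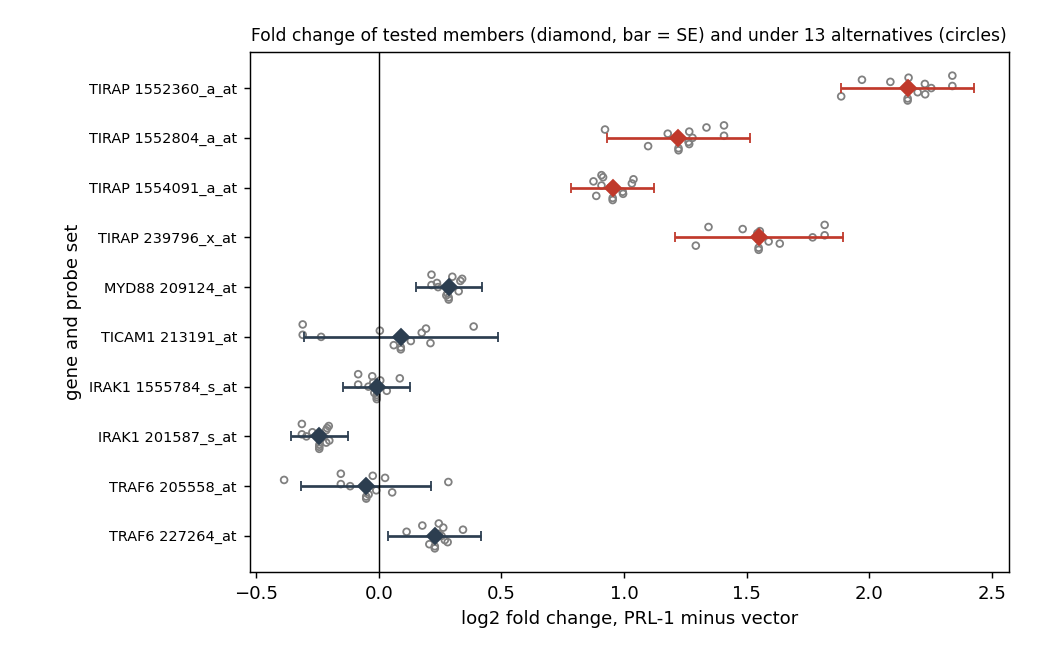
Log2 fold change, PRL-1 minus vector, of the 10 tested member probe sets (diamonds, with bars of 1 SE) and the same value under each of 13 alternative settings (open circles). The TIRAP values stay between 0.88 and 2.34, while those of TICAM1, of TRAF6 205558_at and of IRAK1 1555784_s_at fall on both sides of 0.

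The rest of the pathway was described from 10 lists of textbook members, 112 genes of which 101 had a probe set with a single symbol and 76 were tested. Of their 146 tested probe sets, 0 were called by limma in either direction, and 10 had an unadjusted p under 0.05, 6.85% of them, against 9.72% of all tested probe sets (9 of the 146 by the methods' t-test). Groups did not overlap in 14 probe sets in the upward direction, 9.59%, against 12.8% of all tested probe sets. They did not overlap in 21 in the downward direction, 14.4%, against 16.1% of all. Gene medians below are log2 fold changes and stand beside a median of -0.03 over all 14546 genes tested.

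Of the 7 other Toll-like receptors 4 were tested, and TLR1, TLR9 and TLR10 stayed under 100 on every array, whereas TLR5 lay above 100 on all of them. TLR8, a receptor of single-stranded RNA, gave 82.8 and 121 on the arrays labelled PRL-1, against 131.6, 172.4 and 154.3 on the vector arrays, a log2 fold change of -0.60 (limma adjusted p = 0.624). TLR5, the receptor of flagellin, gave 146.3 and 202.6, against 194.5, 199.2 and 283.1 on the vector arrays, -0.37 (adjusted p = 0.709). TLR6 gave 56.7 and 111.2, against 117.3, 99.8 and 113.3 on the vector arrays, -0.47 (adjusted p = 0.785), or 0.02 without replicate 1 labelled PRL-1. Each read by its brightest probe set, the 4 tested genes lay below 0 with a median of -0.42. A second tested probe set of TLR6 gave 0.01 (adjusted p = 0.998), and TLR6, TLR7 and TLR8 had values on both sides of a signal of 100. The median was -0.06 without replicate 1 labelled PRL-1 and -0.91 without replicate 2 labelled PRL-1.

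Of the co-receptors and chaperones, CD14, CD36, LY96 and CD180 were under 100 on all arrays. CD14 and LY96, also called MD-2, are the partners through which TLR4 takes up lipopolysaccharide. The chaperones HSP90B1, also called gp96, and CNPY3, which fold Toll-like receptors, were tested. CNPY3 228369_at gave 311.8 and 346.5 on the arrays labelled PRL-1, against 234.4, 228.4 and 158.2 on the vector arrays, a log2 fold change of 0.69 (limma adjusted p = 0.421), while its other 3 probe sets overlapped between groups. HSP90B1 gave 0.21 (adjusted p = 0.677) and LBP, the serum protein that binds lipopolysaccharide, -0.38 (adjusted p = 0.806). LBP turned with 1 array, at 0.36 without replicate 1 labelled PRL-1 and -1.13 without replicate 2 labelled PRL-1. The list median was 0.09 over 5 genes.

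Inhibitors and further adaptors had a median of -0.12 over 12 genes, 3 above 0 and 9 below. IRAK2, a kinase related to IRAK1, gave 111.9 and 139.3 on the arrays labelled PRL-1, against 185.4, 174.4 and 251 on the vector arrays, a log2 fold change of -0.69 (limma adjusted p = 0.500). IRAK3, also called IRAK-M, an inhibitor of the pathway, gave -0.55 (adjusted p = 0.587) and PELI3, a ubiquitin ligase that acts on IRAK proteins, 0.88 (adjusted p = 0.631), with groups that did not overlap in either. Without vector replicate 3, at 45.5 the only dim value of PELI3, its log2 fold change was 0.35. The next list held receptors of the interleukin-1 family, most of which signal through MYD88. IL1RL1, the receptor of interleukin-33, gave -0.64 in its probe set with the smallest p (adjusted p = 0.447) and IL1RAP -0.01 (adjusted p = 0.993). IL1R1, IL1R2, IL18R1 and IL1RL2 stayed under 100 on every array.

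The kinase complexes downstream of TRAF6 had a median of 0.00 over 11 genes. MAP3K7, which encodes TAK1, gave 1021 and 1058 on the arrays labelled PRL-1 in 206853_s_at, against 860.7, 892.7 and 838.2 on the vector arrays. The log2 fold change was 0.27 (limma adjusted p = 0.524). Its brightest probe set gave 0.16 with overlapping groups (adjusted p = 0.795), and the others gave 0.14 and 0.13 (adjusted p = 0.749 and 0.794). TAB1, the partner of TAK1, gave -0.43 (adjusted p = 0.520). RNF31, the ligase of linear ubiquitin chains, gave 44.9 and 75.4 on the arrays labelled PRL-1, both dim, against 55.5, 154.6 and 305.2 on the vector arrays (adjusted p = 0.612), and no fold is given. For NF-kB and IkB proteins the median was -0.09 over 9 genes. NFKBIZ, which encodes the nuclear IkB protein IkB-zeta, gave 600.7 and 572.5 on the arrays labelled PRL-1, against 428.1, 437.7 and 272.9 on the vector arrays, 0.66 on the log2 scale (adjusted p = 0.407). The subunit REL gave -0.36 in its probe set with the smallest p (adjusted p = 0.521), but 0.31 in another, also with groups apart (adjusted p = 0.588). NFKBIB, an inhibitor of NF-kB, gave 0.32 (adjusted p = 0.619). Its other tested probe sets gave 0.04 (adjusted p = 0.970) and -0.15 (adjusted p = 0.905), and groups overlapped in all of them.

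For the branch that TICAM1 feeds, the median was -0.04 over 12 genes. AZI2, which binds the kinase TBK1, gave 734.4 and 694.1 on the arrays labelled PRL-1, against 1022, 926.3 and 938 on the vector arrays, a log2 fold change of -0.43 (limma adjusted p = 0.331). CASP8 gave -1.73 (adjusted p = 0.489) through a probe set at 26.3 and 213.2 on the arrays labelled PRL-1, against 211.2, 238.1 and 304.7 on the vector arrays, so a single array carried it, and without that array it was -0.22. Brighter probe sets of CASP8 gave 0.20 (adjusted p = 0.740) and -0.02 (adjusted p = 0.978), with overlapping groups. TRAF3, a ubiquitin ligase of this branch, gave 0.43 (adjusted p = 0.546) and -0.43 (adjusted p = 0.688) in its 2 tested probe sets, with overlapping groups in both. In the MAP kinase branch the median was -0.04 over 7 genes. JUN, a subunit of AP-1, was higher without overlap in 3 of its 4 probe sets, against 12.8% of all tested probe sets. They read a single gene on the same arrays and are not independent measurements. None of the 4 was called (limma adjusted p from 0.235 to 0.800). The brightest, 201464_x_at, has the suffix x, so its probes may also bind other transcripts. It gave 11423 and 8817 on the arrays labelled PRL-1, against 6010, 7311 and 6329 on the vector arrays. Its log2 fold change was 0.62 (adjusted p = 0.235). MAPK8, which encodes the kinase JNK1, gave -0.19 (adjusted p = 0.695). MAP3K8, a kinase upstream of ERK, was dim on both arrays labelled PRL-1, at 77.6 and 70.3, against 132.8, 112.2 and 103.5 on the vector arrays (adjusted p = 0.671). It passed the filter only through the vector arrays, and no fold is given.

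Genes that the pathway switches on did not pass the test either. NF-kB target genes had a median of -0.08 over 6 genes, with 8 of 14 genes too dim to be tested. SOD2 gave -0.25 (limma adjusted p = 0.721), IL1B 0.24 (adjusted p = 0.769) and -0.40 (adjusted p = 0.806) in its 2 probe sets and IL6 -0.21 (adjusted p = 0.895), with overlapping groups in each. Interferon target genes had a median of -0.17 over 8 genes. IFIT1, an RNA-binding protein induced by interferon, gave 317.7 and 338.2 on the arrays labelled PRL-1, against 466.8, 441.6 and 422.1 on the vector arrays, -0.43 on the log2 scale (adjusted p = 0.437). IFIT2 gave -0.64 (adjusted p = 0.566) and IFIT3 0.33 (adjusted p = 0.766). Without vector replicate 3 this log2 fold change of IFIT3 was 0.03. The other tested probe set of IFIT3 gave -0.27 (adjusted p = 0.855), and groups overlapped in both.

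**Figure D4:**
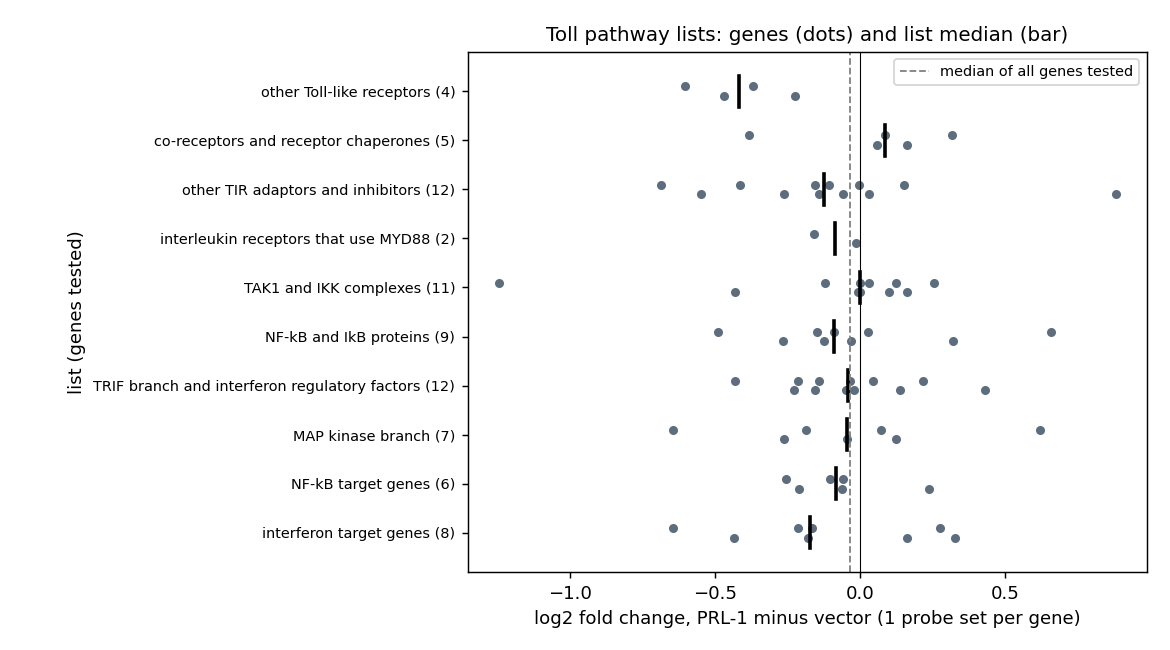
Log2 fold change, PRL-1 minus vector, of each tested gene (dots, 1 probe set per gene, the brightest on average) in 10 pathway lists, with a bar at each list median and a dashed line at the median of all genes tested. Medians lie between -0.42 for the other Toll-like receptors, with 4 genes, and 0.09 for co-receptors and chaperones, with 5 genes.

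The genes beside TIRAP on chromosome 11 were taken from the GRCh38.p14 gene table, 5 on each side whatever their kind. Of these 10 genes 7 had a probe set and 6 were tested, through 8 probe sets. TIRAP-AS1, a long non-coding RNA gene that overlaps an end of TIRAP and an end of DCPS, was above 100 on the arrays labelled PRL-1 only. Whether its probe set can also bind transcripts of these genes was not tested. It gave 215.8 and 279.8 on the arrays labelled PRL-1, against 26.3, 11.8 and 12.4 on the vector arrays, at least 2.46-fold higher when the vector arrays are set to 100. It was tested only because of its level on the arrays labelled PRL-1, and it was not called (limma adjusted p = 0.256). The adjusted p was 0.0614 when vector replicate 3 was left out. Its call was missed in all 13 alternatives run.

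Of the 8 neighbour probe sets tested, 2 had groups apart upward, against 12.8% of all tested probe sets. An unadjusted limma p under 0.05 was found in 2, 25% of them, against 9.72% of all. Both counts are made up of SRPRA 200917_s_at and TIRAP-AS1, which was tested only because of its level on the arrays labelled PRL-1, so nothing is read from them. The protein-coding neighbours showed smaller differences than TIRAP-AS1. SRPRA, a subunit of the receptor for the signal recognition particle, gave 634.1 and 715.7 on the arrays labelled PRL-1, against 463.8, 609.8 and 323.1 on the vector arrays in 200917_s_at, a log2 fold change of 0.58 (limma adjusted p = 0.501). Its brighter probe set gave 0.15 (adjusted p = 0.830) with overlapping groups. FOXRED1, an assembly factor of respiratory complex I, gave 0.31 (adjusted p = 0.628), and DCPS, which degrades mRNA caps, -0.07 (adjusted p = 0.915). ST3GAL4, a sialyltransferase, gave -0.31 (adjusted p = 0.804), and the lncRNA GSEC 0.14 and -0.10 in 2 probe sets. KIRREL3 was under 100 on every array. Beyond these 10 genes, FAM118B was named after its values were seen. Its probe set 223386_at gave 754 and 708.1 on the arrays labelled PRL-1, against 486, 462.5 and 312.3 on the vector arrays (log2 fold change 0.82, adjusted p = 0.271). Of its other probe sets, 230009_at gave 467.4 and 487.3 on the arrays labelled PRL-1, against 296.8, 418.7 and 289.4 on the vector arrays (0.53, adjusted p = 0.454), and 239318_at gave -0.28 (adjusted p = 0.812).

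**Figure D5:**
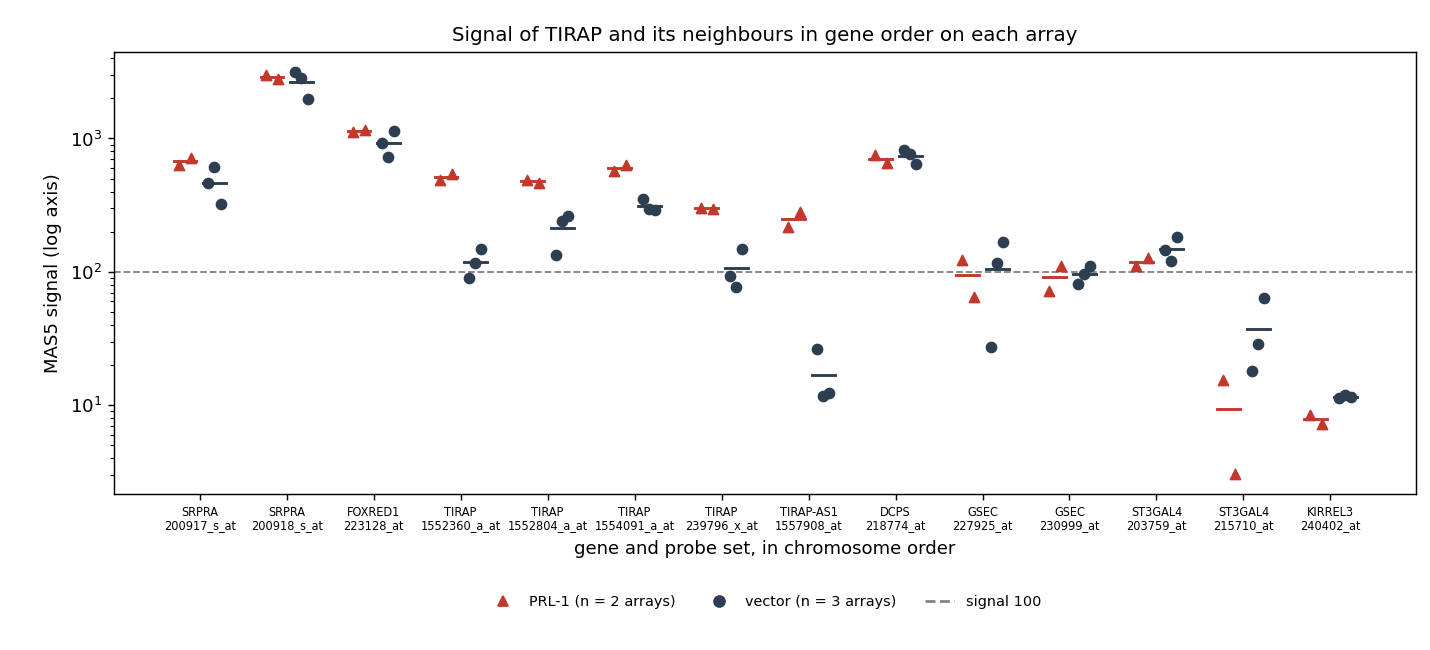
MAS5 signal (log axis) of TIRAP and of its neighbours in chromosome order on the 2 arrays labelled PRL-1 (triangles) and the 3 vector arrays (circles), with bars for group means and a dashed line marking 100. TIRAP-AS1 lies above the line on both arrays labelled PRL-1 and far under it on all vector arrays, while FOXRED1 and DCPS, on either side, overlap between groups.

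The pattern of TIRAP over the 5 arrays was compared with that of 20513 probe sets with a single symbol whose brighter group averaged 200 or more. Likeness was measured on TIRAP 1554091_a_at as the root mean square difference of log2 signals, each centred on its own mean. The nearest genes were NSDHL, an enzyme of cholesterol synthesis, at 0.059, STMN3, a microtubule regulator of neurons, at 0.081, SALL3, a zinc finger transcription factor, at 0.093, SOCS6 at 0.093 and LMAN1, a cargo receptor of the secretory pathway, at 0.10. NSDHL gave 1305 and 1424 on the arrays labelled PRL-1, against 842.8, 741.5 and 687.8 on the vector arrays. Each of the 5 genes was higher on both arrays labelled PRL-1 than on any vector array, a direction that the choice fixes. The other 3 TIRAP probe sets lay farther from 1554091_a_at than these genes did, at 0.45 to 0.67.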

How the data were processed

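Values were deposited as linear MAS5 signals, so each probe set has 1 intensity per array, computed by the authors with the defaults of the affy library. MAS5 corrects each probe with its mismatch partner, so dim signals are noisy, and scales each array to the same trimmed mean. Presence calls were not used here. Replicates were not pooled, and their number limits the precision.

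Of 54675 probe sets, 62 control probe sets were left out, and 33818 with a signal of at least 100 on at least 2 arrays were tested. Genes were named through the platform annotation, updated to the GRCh38.p14 gene table (41091 probe sets with 1 symbol, 1801 with several, 11721 not named). No coordinates are given because the sources used here name no build for the array. Log2 signals went into limma (version 3.58.1, R 4.3.3; lmFit and eBayes with an intensity trend, group as the only term, two-sided). A call is a Benjamini-Hochberg adjusted p at or below 0.05 over all tested probe sets, so each printed adjusted p comes from that fit. The fit was tested on simulated data.

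The members, lists and rules were chosen with earlier results of these data known. All member probe sets are named. From each pathway list the called probe sets are named, or else the 3 genes with the smallest adjusted p (2 where only 2 were tested), each by that probe set. The 5 genes on each side of TIRAP and the 5 of most similar pattern follow. For list medians, each gene was represented by its brightest probe set (mean log2 signal). Alternatives covered the filter, a log offset of 32, normalization, centring, the trend, array weights, a replicate block, each array left out, the mean over a gene's probe sets in place of the brightest and the methods' t-test.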

Additional observations from a re-analysis of the deposited data

How the results depend on the processing

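The log2 fold changes of the 4 TIRAP probe sets kept their sign in all 13 alternatives, between 1.89 and 2.34 for 1552360_a_at and between 0.88 and 1.04 for 1554091_a_at. Their groups did not overlap, so leaving out an array or adding an offset could not turn the sign. Nothing is read from the kept sign. The number of member probe sets called was 1, and every called one was of TIRAP. It was 0 without the filter, 0 without the intensity trend and 0 by the methods' t-test at either threshold, against 3 with array weights. Over all tested probe sets the count was 65, but 9 without the trend, 275 with array weights and 0 by the methods' t-test, which found 2905 at an unadjusted p of 0.05. Leaving out an array gave 0 to 3 member calls and 11 to 313 over all probe sets. The member call was lost without either array labelled PRL-1, where the array left is assumed to vary like the vector arrays, and without vector replicate 2, while without vector replicate 3 there were 3. For the pathway lists the count was 0 throughout, while the medians of 4 of the 10 lists (interleukin receptors, kinase complexes, MAP kinases and NF-kB targets) lay on both sides of 0. With the replicate number as a block, 4 member probe sets and 448 in all were called. The labels give no meaning to the numbers, and deviations of same-numbered arrays correlated at 0.06 and -0.06. With 2 arrays labelled PRL-1, whose deviations mirror each other, this cannot show whether same-numbered arrays share more than a number. That block leaves vector replicate 3 without a partner and in effect removes it. Of the named probe sets outside TIRAP, 55 were followed through the alternatives, but not those of FAM118B, the cell markers or some second probe sets. In these 55, 692 of 703 values kept their side of the threshold. The exceptions were STMN3, which lost its call in 5 settings, and NSDHL and LMAN1, which gained it in 3 each (array weights, the block, and without vector replicate 3). The cause was not tested. With 2 arrays in a group and MAS5 noise near a signal of 100, changes of dim transcripts such as TIRAP-AS1 cannot be sized.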
